A study of Homo sapiens with 10 samples.

Results

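Transcripts of 9 genes of extracellular proteolysis were followed through 10 nanopore RNA libraries of 7 human ovarian cancer cell lines. The genes were the plasminogen activators PLAU and PLAT, the receptor PLAUR, the inhibitor SERPINE2 and the kallikreins KLK5, KLK6, KLK7, KLK8 and KLK10. A transcript was taken when any gene name given to it in the authors' deposited annotation was one of these 9, and all 9 were found, with 37 transcripts of 99493 and 9 of 57110 gene identifiers. COV362, COV504, SK-OV-3, OVKATE, OVMANA and OVTOKO had 1 PromethION library each. IGROV-1 had 2 libraries from the PromethION and 2 from the MinION, a smaller instrument that reads molecules through the same kind of pore. The labels name the cell line and the instrument, and state no genotype, treatment, culture condition or passage. The series was made to benchmark a transcript quantification package, so the lines are compared here only as lines.

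Plasminogen is a circulating zymogen that is cut to plasmin, a broad serine protease that dissolves fibrin and degrades matrix. The urokinase-type activator (PLAU) works mostly at the cell surface, where it binds its receptor uPAR (PLAUR), a protein held in the membrane by a glycosylphosphatidylinositol anchor, while the tissue-type activator (PLAT) works mostly on fibrin. Both activators are inhibited by serpins, among them protease nexin 1 (SERPINE2). Tissue kallikreins are secreted trypsin-like or chymotrypsin-like serine proteases encoded side by side on chromosome 19, and several of them have long been studied as markers of ovarian carcinoma.

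Levels are given as CPM, each count scaled by the library's total, and are set against each other between libraries for a gene, not between genes, since they are not divided by transcript length. Library totals ran from 1729782 to 3666224 counts. A count of 0 allows up to 3 counts, which is 0.82 to 1.73 CPM in a single library and 0.64 CPM over both IGROV-1 PromethION libraries. The Müllerian lineage factor PAX8 was present at 84.1 to 340 CPM in every library, but the other Müllerian markers read were not. MUC16 ranged from 0 CPM in OVTOKO and SK-OV-3 to 57.4 CPM in OVKATE. WT1 was at 76.2 CPM in OVKATE and at most 0.39 CPM in any other line. The epithelial gene EPCAM ranged from 0 CPM in an IGROV-1 MinION library to 1814 CPM in OVMANA. The leukocyte genes PTPRC and CD3E, the fibroblast gene DCN and the endothelial gene VWF stayed at or under 0.58 CPM throughout. Other genes of these marker lists were not absent, with COL1A2 at 429 CPM in COV362, COL1A1 at 219 CPM in SK-OV-3, CDH5 at 24.9 CPM in COV504 and PECAM1 at 10.6 CPM in SK-OV-3. Intervals and floors cover counting error only. A lower level in a library of bulk RNA can come from fewer expressing cells or from less RNA per cell, and these cannot be told apart here.

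**Figure D1:**
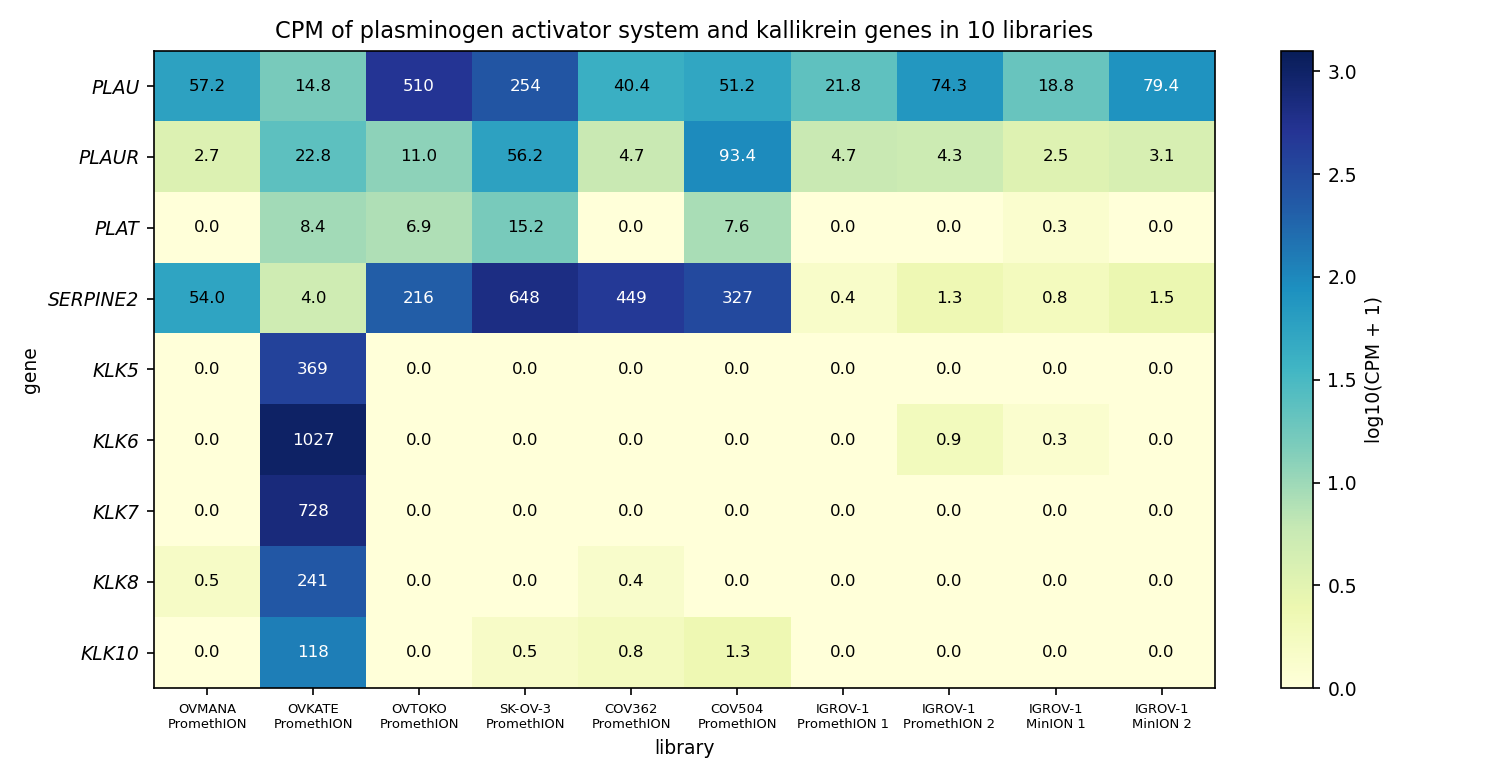
CPM of the 9 genes (rows) in each of the 10 libraries (columns), with the value printed in each cell and the shade on a log10(CPM + 1) scale. The 5 kallikreins are high in OVKATE and at or under 1.33 CPM in the other libraries, SERPINE2 is lowest in the 4 IGROV-1 libraries and OVKATE, and PLAU is highest in OVTOKO and SK-OV-3.

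Each of the 6 other lines was set against the IGROV-1 PromethION libraries with edgeR's quasi-likelihood test over all genes. The test takes its spread from the IGROV-1 replicates only and assumes that a lone library varies like them. The labels do not say that the replicates came from separate cultures, so p-values measure the spread between these libraries, which may be technical. All 9 genes passed the filter on low counts, but the kallikreins passed it through OVKATE alone and PLAT through the 4 lines that had it, so that the counts below describe these genes and are not evidence of their own. In OVKATE 7 of the 9 genes were called higher, PLAUR, PLAT and the 5 kallikreins, where 26.8% of 13030 genes tested were called higher. In OVTOKO and SK-OV-3 the 4 genes of the plasminogen system were above the floor and all 4 were called higher, against 18.2% and 22% of genes. COV504 had 3 genes called higher (PLAUR, PLAT and SERPINE2), against 24% of genes. OVMANA and COV362 had 1 each, SERPINE2, against 18.9% and 23.7% of genes. None of the 9 was called lower than in IGROV-1, where edgeR called lower 16.5% of genes in OVMANA, 22.4% in OVKATE, 15.9% in OVTOKO, 19.8% in SK-OV-3, 18.8% in COV362 and 19.6% in COV504. At an unadjusted p under 0.05 the count of lower genes among the 9 was also 0, by edgeR and by DESeq2. PLAT, KLK5, KLK7, KLK8 and KLK10 could not be called lower, since the IGROV-1 PromethION libraries had 0 counts of them. KLK6 with 2 counts and SERPINE2 with 4 had almost no room to be. The absence of lower calls therefore bears only on PLAU (224 counts) and PLAUR (21 counts). DESeq2 called 5 of the 9 higher in OVKATE (10% of genes), 3 in SK-OV-3 (7.84%), 2 in COV504 (8.95%), and 1 each in OVTOKO (7.58%), OVMANA (8.23%) and COV362 (8.21%). The 6 comparisons share the IGROV-1 libraries, so a count in one comparison is not independent of a count in the next.

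PLAU, the urokinase-type activator (ENSG00000122861, GRCh38 chromosome 10, 73909177 to 73917497, plus strand), was detected in all 10 libraries. Its level was 509.9 CPM in OVTOKO, 253.7 in SK-OV-3, 57.2 in OVMANA, 51.2 in COV504, 40.4 in COV362 and 14.8 in OVKATE. In IGROV-1 it was 21.8 and 74.3 CPM in PromethION replicates 1 and 2, and 18.8 and 79.4 CPM in MinION replicates 1 and 2. OVTOKO and SK-OV-3 lay above all other libraries, and the remaining lines lay within or near the range of the IGROV-1 libraries. Counting error was small beside these differences, since the 95% exact Poisson interval was 477 to 545 CPM in OVTOKO and 232 to 277 CPM in SK-OV-3.

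The log2 difference from IGROV-1 in PLAU was 3.48 (SE 0.67, adjusted p = 0.0047) in OVTOKO and 2.17 (SE 0.68, adjusted p = 0.033) in SK-OV-3. DESeq2 called neither difference, with adjusted p = 0.058 for OVTOKO and 0.30 for SK-OV-3, the highest values over the alternatives. The SK-OV-3 call was also lost without MinION replicate 1 (adjusted p = 0.081), without MinION replicate 2 (0.056) and with no filter (0.074). Leaving out an IGROV-1 library moved the difference between 2.85 and 4.63 in OVTOKO and between 1.54 and 3.31 in SK-OV-3, the lowest without PromethION replicate 1 and the highest without PromethION replicate 2. No difference was called for OVMANA (0.31, SE 0.80), COV504 (0.01, SE 0.79), COV362 (−0.21, SE 0.80) or OVKATE (−1.99, SE 1.00, adjusted p = 0.13). The intervals of these differences were wide, from −1.51 to 2.14 in OVMANA and from −4.28 to 0.29 in OVKATE. With the 7 lines ordered by PLAU level, 0 of 6 neighbouring pairs were called different (0 at an unadjusted p under 0.05, by edgeR and by DESeq2), while OVTOKO was called above OVKATE by 5.48 (SE 1.01, adjusted p = 0.0035), where 40.4% of genes were called. More of the neighbouring pairs were called without PromethION replicate 1 or without PromethION replicate 2. Those fits take their spread from the MinION pair alone, so their calls are not read as differences.

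The width of the PLAU intervals follows the IGROV-1 replicates. PLAU averaged 48.0 ± 37.1 CPM (SD, n = 2) on the PromethION and 49.1 ± 42.8 CPM (SD, n = 2) on the MinION. Replicate 2 held 3.41 times the level of replicate 1 on the PromethION and 4.22 times on the MinION. Without PromethION replicate 2, the log2 difference from IGROV-1 in PLAU was 1.45 in OVMANA, 1.15 in COV504, 0.93 in COV362 and −0.85 in OVKATE. Without PromethION replicate 1 it was −0.32 in OVMANA, −0.62 in COV504, −0.84 in COV362 and −2.63 in OVKATE. These fits leave 1 library in the reference and take their spread from the MinION pair alone, so only effect sizes are given. Whether PLAU in OVMANA, COV362 and COV504 stood above or below IGROV-1 therefore depended on which IGROV-1 library was used. In OVKATE the difference stayed negative, and only its size depended on the library. Other genes differed between the replicates in the same direction on both instruments, and the following 3 were chosen after their values were seen. COL1A1, a collagen chain, was at 6.4 and 22.8 CPM in PromethION replicates 1 and 2 and at 4.9 and 22.9 CPM on the MinION. KRT18, a keratin, was at 263 and 1041 CPM on the PromethION and at 244 and 1080 CPM on the MinION. F2RL1, a receptor cut by serine proteases, was at 2.56 and 9.45 CPM on the PromethION and at 3.82 and 8.65 CPM on the MinION. What these replicate differences had to do with the PLAU difference was not tested.

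**Figure D2:**
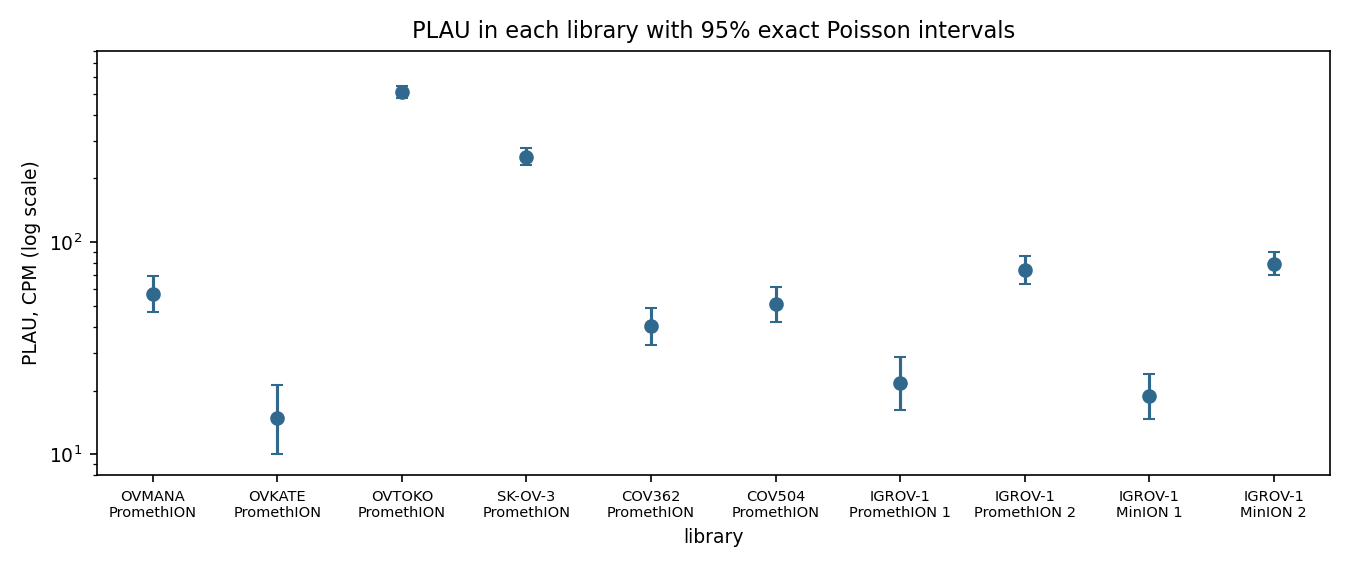
PLAU in CPM (log axis) in each library, with 95% exact Poisson intervals as bars. OVTOKO at 509.9 and SK-OV-3 at 253.7 CPM lie above the rest, and replicates 1 and 2 of IGROV-1 lie apart on both instruments, at 21.8 and 74.3 CPM on the PromethION and 18.8 and 79.4 CPM on the MinION.

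Nearly all PLAU counts fell on a single transcript, ENST00000372764, which has 11 exons and 431 codons. It held 98.3% to 99.5% of the PLAU counts in the 9 libraries with at least 50 of them. The line differences in PLAU were thus differences in this transcript. A partly overlapping gene on the other strand, C10orf55, reached at most 0.58 CPM in any library. The sources name no strand setting for the counting, and without one, reads of the overlapping parts cannot be told apart.

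PLAT, the tissue-type activator (ENSG00000104368, chromosome 8, 42175233 to 42207724, minus strand), was either low or not detected. It had 15.2 CPM in SK-OV-3 (30 counts), 8.41 in OVKATE (17 counts), 7.56 in COV504 (17 counts) and 6.94 in OVTOKO (12 counts). It had 0 counts in OVMANA, COV362, both IGROV-1 PromethION libraries and MinION replicate 2, and 1 count in MinION replicate 1. The split into 4 lines with PLAT and 3 without was made on these counts and is a description only. The floor over both IGROV-1 PromethION libraries was 0.64 CPM. PLAT was at 23.6 times that floor in SK-OV-3 (edgeR adjusted p against IGROV-1 = 0.0011), 13.1 times in OVKATE (0.0032), 11.8 times in COV504 (0.0035) and 10.8 times in OVTOKO (0.0058). These multiples leave out counting error in the line itself. Its 95% exact Poisson interval was 10.3 to 21.7 CPM in SK-OV-3 and 3.58 to 12.1 CPM in OVTOKO. DESeq2 kept the call for SK-OV-3 (adjusted p = 0.043) and not for OVKATE (0.081), COV504 (0.091) or OVTOKO (0.10). Among the 4 lines with PLAT no neighbouring pair was called different, and OVTOKO was called above OVMANA (adjusted p = 0.028), where 24.9% of genes were called. That last call was lost under DESeq2, with the 8 PromethION libraries only, without MinION replicate 1 and without MinION replicate 2. Of the 77 PLAT counts over all libraries, 89.6% (95% Wilson interval 80.8% to 94.6%) fell on ENST00000220809, which has 562 codons.

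PLAUR, the urokinase receptor (ENSG00000011422, chromosome 19, 43646095 to 43670547, minus strand), was highest in COV504 and next in SK-OV-3. Its level was 93.4 CPM in COV504, 56.2 in SK-OV-3, 22.8 in OVKATE, 10.98 in OVTOKO, 4.70 in COV362 and 2.67 in OVMANA. IGROV-1 had 4.70 and 4.30 CPM in its PromethION libraries, and 2.45 and 3.09 CPM in its MinION libraries. COV504, SK-OV-3, OVKATE and OVTOKO lay well above all 4 IGROV-1 libraries, COV362 was level with the highest of them, and OVMANA lay within their range. The log2 difference from IGROV-1 was 4.28 (SE 0.25, adjusted p = 7.7e-06) in COV504, 3.40 (SE 0.27, adjusted p = 4.6e-05) in SK-OV-3 and 2.02 (SE 0.32, adjusted p = 0.0011) in OVKATE. The smaller difference in OVTOKO, 1.36 (SE 0.39, adjusted p = 0.028), was lost under DESeq2 (adjusted p = 0.45), with the 8 PromethION libraries only (0.054) and without each of the 4 IGROV-1 libraries (0.050 to 0.072), over alternatives that ran from 0.0064 to 0.45. DESeq2 also lost the OVKATE call (adjusted p = 0.10).

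The top of the PLAUR order was separated by the test. COV504 was called above SK-OV-3 by 0.88 (SE 0.22, adjusted p = 0.020), where 29% of genes were called between these lines. SK-OV-3 was called above OVKATE by 1.38 (SE 0.26, adjusted p = 0.0044), where 38.5% of genes were called. The 4 lower neighbouring pairs were not called, with adjusted p from 0.057 to 0.90. Without MinION replicate 1, or without MinION replicate 2, 1 of the 6 neighbouring pairs was called, and DESeq2 called 0. OVTOKO, the line with the most PLAU, thus had 10.98 CPM of PLAUR, and COV504, with the most PLAUR, had 51.2 CPM of PLAU. SK-OV-3 was the single line among the highest 2 for both. Over the 7 lines the log2(CPM + 1) levels of PLAU and PLAUR had a Pearson r of 0.13 and a Spearman rho of 0.07, and those of PLAUR and PLAT an r of 0.87 and a rho of 0.85, given as descriptions of 7 lines with 1 mean each.

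COV504 and SK-OV-3 had enough PLAUR counts, 210 and 111, to divide them among transcripts. Of these transcripts only the main one meets the naming rule of 20% of the gene, and the other 2 were chosen after their values were seen. The main transcript, ENST00000340093, has 335 codons. ENST00000339082 replaces the last exon with another further downstream (43646095 to 43646548), which gives 281 codons and a different coding end. ENST00000601723 leaves out the sixth exon, of 147 bases (43652225 to 43652371), and has 286 codons. The exon junctions that set them apart are shown as 15 bases from each side, read from the GENCODE 29 transcripts, with the downstream exon in capitals.
ENST00000340093, exon 6 to exon 7: ccaccggcactcacgAACCGAAAAACCAAA
ENST00000339082, exon 6 to its own exon 7: ccaccggcactcacgAACGCTCACTCTGGG
ENST00000601723, exon 5 to its exon 6: gcaacgagggcccaaAACCGAAAAACCAAA

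ENST00000340093 held 77.4% of PLAUR counts in COV504 (95% Wilson interval 71.5% to 82.7%) and 64.6% in SK-OV-3 (55.6% to 73.1%). The transcript with the other last exon held 8.19% in COV504 (5.12% to 12.6%) and 19.1% in SK-OV-3 (12.7% to 27.2%). The intervals for this transcript all but met, ending at 12.6% in COV504 and starting at 12.7% in SK-OV-3. Each line had 1 library, the transcript was chosen after its values were seen, and the difference was not tested. The transcript without the sixth exon held 13.9% in COV504 (9.79% to 19.1%) and 11.8% in SK-OV-3 (6.97% to 19.01%), with intervals that overlapped.

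SERPINE2, which inhibits urokinase, plasmin and thrombin (ENSG00000135919 in the annotation, chromosome 2, 223975112 to 224039319, minus strand), was abundant in 4 lines, intermediate in OVMANA and near the floor in OVKATE and IGROV-1. Its level was 647.8 CPM in SK-OV-3, 448.6 in COV362, 326.6 in COV504, 216.2 in OVTOKO, 54.0 in OVMANA and 3.96 in OVKATE. IGROV-1 had 0.43 and 1.29 CPM in its PromethION libraries and 0.82 and 1.54 CPM in its MinION libraries, from 1 to 5 counts each. All 4 IGROV-1 libraries lay below the 6 other lines. The log2 difference from IGROV-1 was 9.25 (SE 0.29, adjusted p = 7.5e-07) in SK-OV-3, 8.99 (SE 0.29, adjusted p = 1.2e-06) in COV362 and 8.41 (SE 0.30, adjusted p = 1.5e-06) in COV504. It was 7.97 (SE 0.31, adjusted p = 1.9e-06) in OVTOKO and 5.96 (SE 0.38, adjusted p = 1.4e-05) in OVMANA. The IGROV-1 PromethION libraries held 4 SERPINE2 counts together, so the ratio of CPM is imprecise, 756 for SK-OV-3 with an exact 95% counting interval of 295 to 2779, and 63.0 for OVMANA with 23.9 to 236.

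OVKATE, with 8 counts of SERPINE2, was at 1.85 above IGROV-1 (SE 0.69, adjusted p = 0.052) and was not called. It was called with library totals only (adjusted p = 0.029), with relative log expression scaling (0.045), against both IGROV-1 groups (0.038) and without PromethION replicate 2 (0.037), over alternatives from 0.029 to 0.24. In the order of levels, OVTOKO was called above OVMANA by 2.02 (SE 0.23, adjusted p = 6.7e-04), where 24.9% of genes were called. OVMANA was called above OVKATE by 4.11 (SE 0.37, adjusted p = 1.2e-04), where 38.5% of genes were called. The neighbours among SK-OV-3, COV362, COV504 and OVTOKO were not called different, with adjusted p from 0.063 to 0.34. Lines further apart in this order were called different by edgeR. OVTOKO minus SK-OV-3 was −1.28 (SE 0.20, adjusted p = 0.0030), where 26.7% of genes were called. OVTOKO minus COV362 was −1.02 (SE 0.20, adjusted p = 0.0062), where 34.9% were called. SK-OV-3 minus COV504 was 0.84 (SE 0.20, adjusted p = 0.015), where 29% were called. More neighbouring pairs were called without PromethION replicate 2, a fit whose spread comes from the MinION pair alone. OVKATE had the kallikreins and little SERPINE2, the 5 lines with 54.0 CPM or more of SERPINE2 had at most 1.96 CPM of all kallikreins together, and IGROV-1 had little of either, with at most 1.54 CPM of SERPINE2 and 1.29 CPM of the kallikreins.

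The 2 main SERPINE2 transcripts differ by 3 bases at the start of an exon, and the second is shown although it stays under 20%, a choice made after its values were seen. ENST00000409304 has 397 codons and ENST00000258405 has 398. The 3 bases lie at chr2:223980398-223980400 on the minus strand, and are in capitals below.
ENST00000258405: ttgcaaaaataacaaCAGggtcagaaaacc
ENST00000409304: ttgcaaaaataacaaggtcagaaaacc

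ENST00000409304 held most SERPINE2 counts in each of the 5 lines with at least 50 counts of the gene, 85.8% in COV362, 86.7% in SK-OV-3, 89.3% in COV504, 91.5% in OVMANA and 91.9% in OVTOKO. ENST00000258405 held 12.9% in COV362 (95% Wilson interval 11.1% to 14.99%), 12.4% in SK-OV-3 (10.7% to 14.4%), 10.1% in COV504 (8.11% to 12.5%), 7.84% in OVMANA (4.07% to 14.9%) and 7.37% in OVTOKO (5.23% to 10.6%). SK-OV-3 and COV362, the lines with the most SERPINE2, had the largest shares. Their intervals started at 10.7% and 11.1%, just above the end of that of OVTOKO at 10.6%. The lines had 1 library each, and the difference was not tested. How well nanopore reads resolve a difference of 3 bases was not tested.

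**Figure D3:**
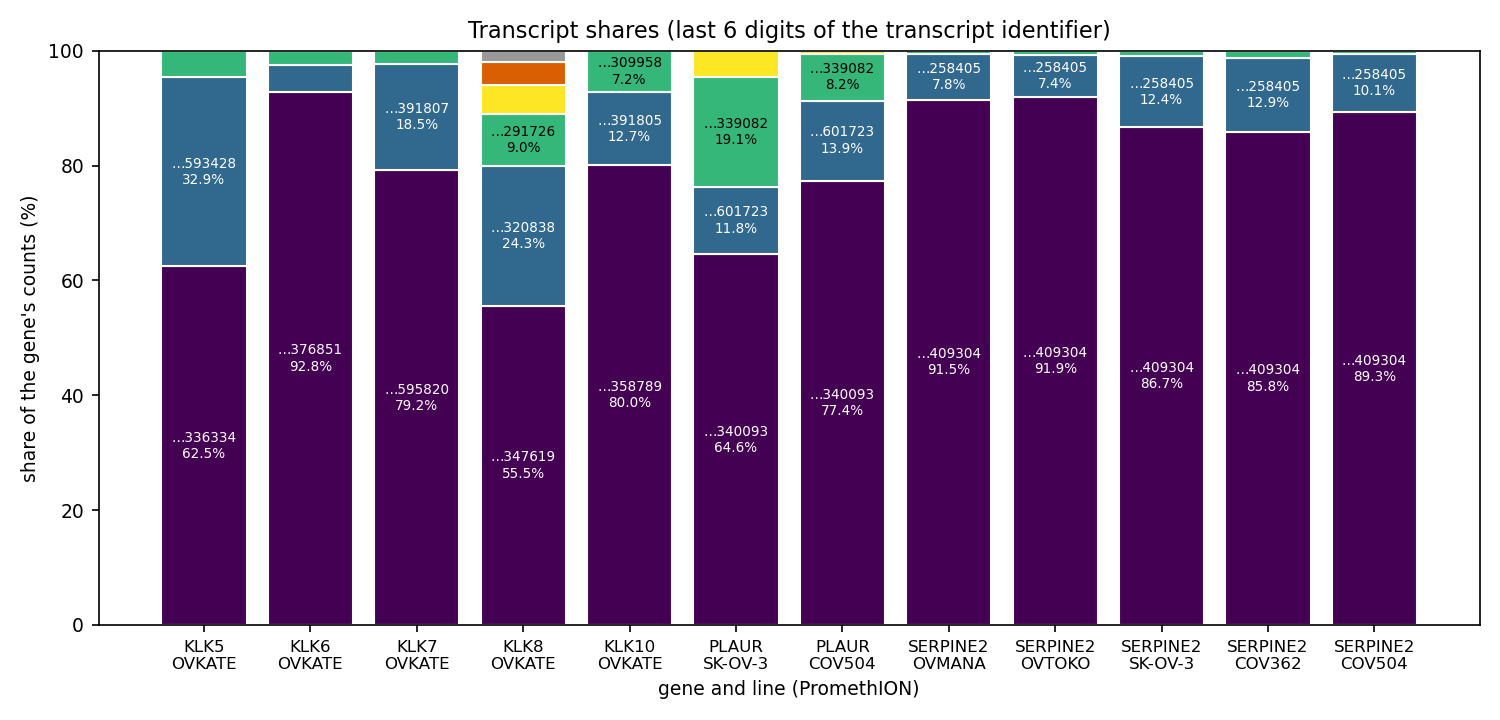
Share of a gene's counts (percent) on each transcript, stacked to 100%, for the kallikreins in OVKATE and for PLAUR and SERPINE2 in lines with at least 50 counts. A single transcript holds most counts of each gene, with KLK8 (55.5%) and KLK5 (62.5%) the most divided.

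The kallikreins were almost confined to OVKATE. KLK6, a trypsin-like enzyme, had 1027.3 CPM there (2077 counts), 0.86 CPM in IGROV-1 PromethION replicate 2 (2 counts), 0.27 CPM in MinION replicate 1 (1 count) and 0 counts in the other 7 libraries. KLK7, a chymotrypsin-like enzyme that sheds the outer layer of skin, had 728.0 CPM in OVKATE (1472 counts) and 0 counts in the other 9 libraries. KLK5, a trypsin-like enzyme that activates KLK7, had 369.5 CPM in OVKATE (747 counts) and 0 counts in the other 9. In each case the OVKATE library stood alone, and no other library passed the floor.

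KLK8, a trypsin-like enzyme also called neuropsin, had 241.4 CPM in OVKATE (488 counts) and 1 count each in OVMANA and COV362. Its identifier in the deposited annotation joins KLK8, AC011473.4 and KLK9, and all 488 counts lay on the 6 transcripts that GENCODE 29 gives to KLK8, with 0 on the 2 given to another gene. KLK10, first described as a gene reduced in breast cancer cells, had 118.2 CPM in OVKATE (239 counts), 1.33 CPM in COV504 (3 counts), 0.78 CPM in COV362 (2 counts) and 0.51 CPM in SK-OV-3 (1 count). Counting error in OVKATE is left out of the following multiples. Set against the floor over both IGROV-1 PromethION libraries, OVKATE was at 1133 times it for KLK7 (edgeR adjusted p against IGROV-1 = 3.3e-06), 575 times for KLK5 (6.6e-06), 376 times for KLK8 (1.1e-05) and 184 times for KLK10 (3.2e-05). For KLK6, with 2 counts in those libraries, the log2 difference was 10.77 (SE 0.37, adjusted p = 1.0e-06), and the ratio of CPM was 2398 with an exact 95% counting interval of 663 to 19816. Both counts were in PromethION replicate 2, and the log2 difference was 9.84 without replicate 1 and 14.02 without replicate 2, the latter fitted against 0 counts. Against the line next below it in level, OVKATE was called higher for each of the 5 kallikreins, with adjusted p from 1.0e-06 to 3.5e-04. These calls held under every alternative run, DESeq2 included, except that KLK8 has no value once joined identifiers are left out. The lines were ordered by the levels tested, and the kallikreins passed the filter through OVKATE alone. The calls and their stability therefore describe the gap and are not further evidence of it. The other lines compared here were OVMANA for KLK5, KLK7 and KLK8 (38.5% of genes called, with the lines tied at 0 for KLK5 and KLK7) and COV504 for KLK10 (34.5%).

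All kallikrein genes together made 2584 CPM in OVKATE (5225 counts) and 0 to 1.96 CPM in the other 9 libraries (0 to 5 counts each). OVKATE is a single library without a replicate of its own, so its separation from the others is not backed by a second culture. Of 1987 genes at 100 CPM or more in OVKATE, 7 had at most 3 counts in every other PromethION library, and these were the 5 kallikreins with KRT23, a keratin, and THRSP, a gene of lipid synthesis. KLK10 at 118.2 CPM was just inside this limit, and its neighbour KLK11 at 99.9 CPM just outside. The same description gave 0 to 4 genes in each of the other 6 lines, none of them a kallikrein or a plasminogen system gene. This count describes the lines, and its limits were set with the levels known.

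The kallikreins detected in OVKATE lie in one stretch of the cluster, with KLK9 as a gap in it. The kallikrein cluster holds 16 genes, the pseudogene KLKP1 included, over 265098 bases of chromosome 19 (50819148 to 51084245). From KLK5 (50943303 to 50953093) through KLK6 (50958631 to 50969673), KLK7 (50976482 to 50984099), KLK8 (50996007 to 51002711) and KLK10 (51012739 to 51020175) to KLK11 (ending at 51028039) there are 84737 bases with 7 kallikrein genes, all transcribed from the minus strand. The other one, KLK9 (51003111 to 51009634), lies between KLK8 and KLK10, and none of the counts of the identifier it shares with KLK8 lay on its transcripts. KLK11, which was not among the 9 genes, had 99.9 CPM in OVKATE (202 counts) and at most 0.51 CPM in any other line. Upstream in coordinates, KLK1, KLK15, KLK3, KLK2, KLKP1 and KLK4 had 0 counts in OVKATE, and beyond KLK11, KLK12, KLK13 and KLK14 had 0 counts.

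Outside the cluster the nearest genes with counts did not share the pattern. C19orf48 had 69.7 CPM in OVKATE and 79.6 CPM in OVMANA, the highest other line. CTU1, an enzyme of transfer RNA modification, had 20.8 CPM in OVKATE and 18.2 CPM in COV504. CLEC11A had 9.4 CPM in OVKATE and 28.9 CPM in SK-OV-3. Genes on the opposite strand within the cluster had 0 counts in every library where they overlap KLK5, KLK6, KLK7, KLK8 or KLK10.

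**Figure D4:**
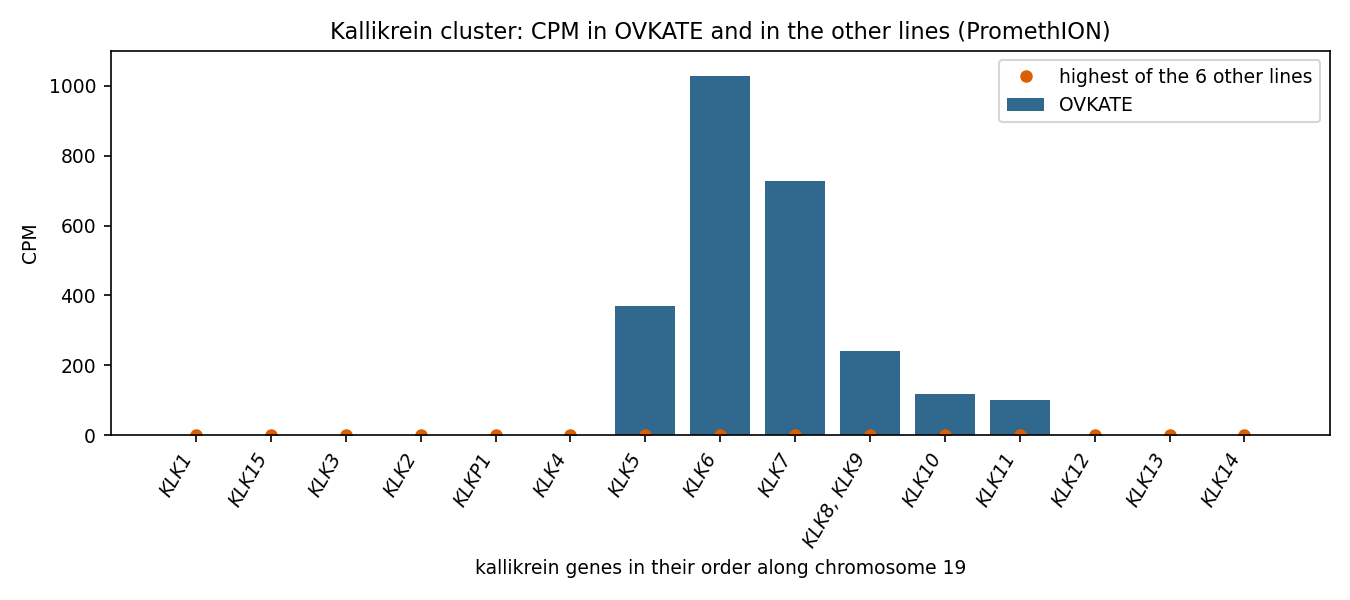
CPM of the kallikrein genes in their order along chromosome 19, with OVKATE as bars and the highest of the other 6 lines as points. KLK5 (369.5 CPM), KLK6, KLK7, KLK8, KLK10 and KLK11 (99.9 CPM) are high in OVKATE, and the genes on either side are at 0. The bar of KLK8 stands for an identifier joined with KLK9, on whose transcripts no count lay.

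Transcripts of KLK8 in OVKATE mostly lacked exons of the protease domain. In kallikrein genes the catalytic histidine and aspartate are encoded in the coding exons that follow the signal peptide exon, and the catalytic serine in the last coding exon. The KLK8 transcript with all coding exons, ENST00000600767, has 260 codons, and its exons 4 and 5 are 160 bases (51000424 to 51000583) and 263 bases (50999996 to 51000258) long. ENST00000347619 leaves out both of these and has 119 codons. ENST00000320838 leaves out the next exon as well and has 32 codons. The junctions out of the first coding exon show the 3 forms, with 15 bases from each side, read from the GENCODE 29 transcripts on the minus strand and the downstream exon in capitals.
ENST00000600767, exon 3 to exon 4: ggggagcctgggcagGACACTCCAGGGCAC
ENST00000347619, exon 2 to exon 3: ggggagcctgggcagAGAATTTTCCTGACA
ENST00000320838, exon 2 to exon 3: ggggagcctgggcagGGCGATTCTGGAGGC

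ENST00000347619 held 271.1 of the 488 KLK8 counts, 55.5% (95% Wilson interval 51.1% to 59.9%). ENST00000320838 held 24.3% (20.8% to 28.4%). The transcript with all coding exons held 5.11% (3.49% to 7.45%), and a transcript that lacks only the 160-base exon, ENST00000291726, held 9.05% (6.79% to 11.9%). The last 2 are under 20% and were named after their values were seen. Over all annotated KLK8 transcripts, 83.8% of counts (80.3% to 86.8%) lay on 3 that lack both exons, 7.13% (5.2% to 9.81%) on 2 that have both and 9.05% on the 1 that lacks only the 160-base exon. The 3 transcripts that lack both exons are 267, 456 and 555 bases long, and the others 853, 1051 and 1324 bases, so length moves with the presence of these exons, and its part in the shares was not tested. The shares come from 1 library, and no other library had more than 1 count of KLK8.

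**Figure D5:**
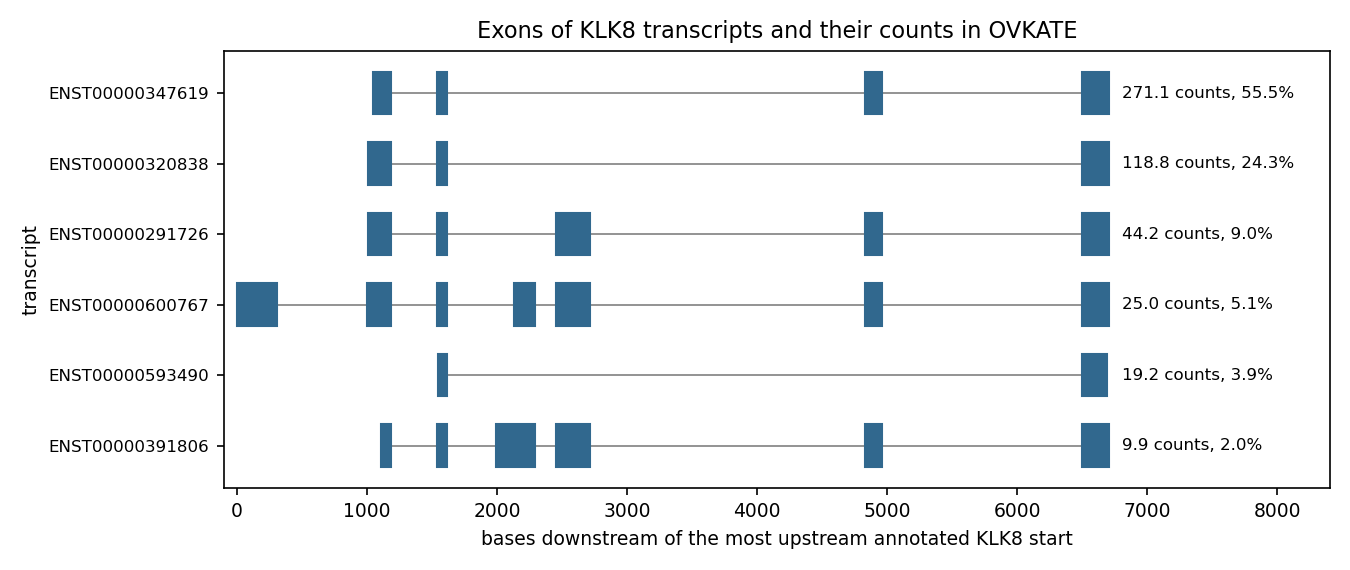
Exons (boxes) of the 6 KLK8 transcripts with counts in OVKATE, drawn to scale along the gene in bases from the most upstream start, with each transcript's counts and share of the 488 KLK8 counts. The 3 transcripts that lack the 2 middle coding exons carry 83.8% of the counts.

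In the other 4 kallikreins the coding part was mostly whole. KLK6 had 92.8% of its counts (91.6% to 93.9%) on ENST00000376851, with 244 codons. KLK7 had 79.2% (77.0% to 81.1%) on ENST00000595820 and 18.5% on ENST00000391807, both with 253 codons, and 2.31% on ENST00000597707, with 181. KLK5 had 62.5% (59.0% to 65.9%) on ENST00000336334 and 32.9% (29.7% to 36.4%) on ENST00000593428, which share a coding length of 293 codons and differ outside it. KLK10 had 80.0% (74.4% to 84.5%) on ENST00000358789 and the rest on 2 transcripts of the same 276 codons. ENST00000391807, ENST00000597707 and the lesser KLK10 transcripts are under 20% and were chosen after their values were seen.

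Because these genes were high together in OVKATE, their upstream sequences are shown where a promoter entry of RefSeq (GRCh38.p14) starts within 100 bases of the main transcript. This held for KLK5, KLK7 and KLK10 among the kallikreins, and not for KLK6, whose nearest entry starts 619 bases away. Only the part of the 250 bases before the start that lies outside annotated exons is printed, on the minus strand of chromosome 19. Capitals mark matches to GGGCGG, the core of the Sp1 binding site, here read on the other strand.
KLK5, chr19:50953094-50953288: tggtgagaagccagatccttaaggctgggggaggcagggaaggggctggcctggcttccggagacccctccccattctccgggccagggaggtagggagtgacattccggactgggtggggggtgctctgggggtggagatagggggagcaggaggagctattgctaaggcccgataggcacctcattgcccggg
KLK7, chr19:50984100-50984314: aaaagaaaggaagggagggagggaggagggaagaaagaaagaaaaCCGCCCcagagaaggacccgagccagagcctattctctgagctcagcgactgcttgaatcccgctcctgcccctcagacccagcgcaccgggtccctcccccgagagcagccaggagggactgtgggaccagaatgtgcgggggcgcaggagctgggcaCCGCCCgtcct
KLK10, chr19:51019765-51019819: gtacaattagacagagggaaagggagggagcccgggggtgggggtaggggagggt

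These printed stretches were rich in G and C, at 65.1% in KLK5, 63.7% in KLK7 and 63.6% in KLK10. Both strands of the 250 bases before each start were searched for the TATA box (TATAAA), the GC box (GGGCGG), the AP-1 site (TGANTCA), the CCAAT box (its name gives its letters), a nuclear receptor element (AGGTCA) and an E-box (CACCTG), and the letters of these motifs do not contain each other. The GC box was found in KLK7 at positions −205 and −46 from the start, and no other match lay in the 250 bases of any of the 3 genes. In the same 250 bases before the start of all 35116 RefSeq promoter entries, 42.6% held the GC box, 32.01% the CCAAT box, 17.5% the E-box, 12.1% the nuclear receptor element, 10.7% the TATA box and 6.57% the AP-1 site. The 3 genes thus shared none of these motifs, which says only that they are not in these bases.

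The rest of the plasminogen system was read from a list of 17 genes, 9 of which passed the filter on low counts. Plasminogen itself (PLG) had 0 counts in all 10 libraries. OVKATE had 5 called higher than IGROV-1 and 0 lower, COV504 had 3 and 1, COV362 had 3 and 3, and OVMANA, OVTOKO and SK-OV-3 each had 4 and 2. Of all genes tested, 18.2% to 26.8% were called higher and 15.9% to 22.4% lower in these comparisons. The median log2 difference of the 9 was 1.96 in OVKATE and 0.17 to 0.63 in the other 5 lines, where the median of all genes tested was −0.01 to 0.04.

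SERPINA5, a serpin that inhibits urokinase and kallikreins, had 415 CPM in OVKATE, 60.7 and 46.8 CPM in the IGROV-1 PromethION libraries and at most 2.03 CPM in the 5 other lines. It was called higher in OVKATE (log2 difference 2.65, SE 0.21, adjusted p = 3.2e-05) and lower in the other 5 lines. ANXA2, which with S100A10 forms a cell surface site for plasminogen, had 730 and 792 CPM in the IGROV-1 PromethION libraries and 1455 to 5673 CPM in the 6 other lines, in all of which it was called higher.

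Among 11 other kallikreins, KLK11 alone passed the filter, and it was called higher in OVKATE (adjusted p = 4.3e-05) and in no other line. With at most 0.51 CPM in any other line, KLK11 passed through OVKATE alone. Its call therefore describes that gap and is not further evidence of it. Of 14 kallikrein inhibitors, activating proteases and receptors, 11 passed the filter, and 8 were called higher and 1 lower in both OVKATE and COV504. OVMANA had 7 called higher and 2 lower, SK-OV-3 had 6 and 1, COV362 had 4 and 1, and OVTOKO had 4 and 0, against the same shares of all genes, 18.2% to 26.8% higher and 15.9% to 22.4% lower. Their median log2 difference was 5.16 for OVMANA, 3.41 for COV504, 3.33 for OVKATE, 2.25 for COV362, 1.27 for SK-OV-3 and 0 for OVTOKO.

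Membrane proteases that activate serine protease zymogens were shared by OVKATE with lines that had no kallikreins. ST14 (matriptase) had 172.6 CPM in OVKATE, 159.2 in OVMANA, 99.2 in COV504 and at most 1.96 CPM in the other lines. PRSS8 (prostasin) had 53.4 CPM in OVKATE, 38.5 in OVMANA, 16.5 in COV504 and 6.66 in COV362, with at most 1.16 CPM elsewhere. SPINT1, their membrane-bound inhibitor, had 135.0 CPM in OVKATE, 59.8 in OVMANA, 40.9 in COV504 and 6.36 to 7.60 CPM in OVTOKO, COV362 and SK-OV-3. F2RL1, the receptor PAR2 that trypsin-like kallikreins can cut, had 69.0 CPM in COV504, 56.7 in OVTOKO, 54.9 in OVKATE and 31.9 in SK-OV-3, each called higher than IGROV-1, and 11.2 to 12.5 CPM in OVMANA and COV362, which were not called. Of 5 epithelial markers, EPCAM (365 to 1814 CPM), CDH1 (59.2 to 214 CPM) and KRT19 (466 to 1833 CPM) were also higher in OVMANA, OVKATE and COV504 than in the other 4 lines. KRT8 and KRT18 did not follow that division, with 498 CPM of KRT8 in COV362 against 325 in OVMANA, and 652 CPM of KRT18 in IGROV-1 against 645 in OVKATE.

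Genes outside the 9 were ranked by how closely their log2(CPM + 1) levels followed each gene over the 7 lines, among 11202 genes that reached 10 CPM in a line. These are Pearson r over 7 points, given as descriptions. For PLAU they were UBE2Q2 (r = 0.97), SBNO2 (0.96) and SCO2 (0.96), and for PLAUR HRAS (0.99), RBBP7 (0.98) and MADD (0.97). PLAT was followed by MYL12A (0.98), C2orf69 (0.97) and RBL2 (0.96), and SERPINE2 by CIB1, FCHSD2 and RNPEPL1, each at 0.96. KLK5 and KLK7 have counts in OVKATE alone, so any gene with counts only there gives an r of 1, as MAF (22.8 CPM) and HECW1 (12.9 CPM) did with both, SFTPD (16.3 CPM) with KLK5 and PHOX2A (40.1 CPM) with KLK7. KLK6 was followed by SGIP1, GABBR2 and DMRT2, KLK8 by WT1 (76.2 CPM in OVKATE), KLHDC8A and MAF, and KLK10 by IGSF11, TMEM255A and CCL28 (624 CPM in OVKATE), each with an r of at least 0.99. At r above 0.95 there were 7 to 10 genes for each of the 4 plasminogen system genes and 73 to 83 for each kallikrein.

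Between instruments, only PLAU and PLAUR had enough counts in IGROV-1 to be tested, and neither was called by edgeR or DESeq2, where edgeR called 0.817% of 10041 genes and found 1659 at an unadjusted p under 0.05. PLAU differed by −0.04 on the log2 scale, MinION minus PromethION (SE 0.62, 95% interval −1.45 to 1.37, adjusted p = 0.98). PLAUR averaged 4.50 ± 0.29 CPM on the PromethION and 2.77 ± 0.45 CPM on the MinION (SD, n = 2 each), a log2 difference of −0.74 (SE 0.41, 95% interval −1.67 to 0.19, adjusted p = 0.41). Neither had an unadjusted p under 0.05. These intervals allow a change of more than 2-fold in PLAU either way. Of the 37 transcripts only ENST00000372764 of PLAU was tested, with a difference of −0.05 (adjusted p = 0.98), where 2.29% of 14023 transcripts were called.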

How the data were processed

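The authors' deposited tables give, for every transcript and library, an estimated count and a value named TPM. Per the submitters' processing notes, minimap2 2.24-r1122 and GRCh38 were used; of the basecaller, quantification settings, annotation release, filters and use of strand, nothing is stated there or in the labels. The deposited TPM equalled each estimated count scaled to the library's total, with a largest difference of 5.6e-11, and was not divided by length, so it is called CPM. Counts were summed per gene identifier and rounded, at a loss of 0.026% of counts or less. Identifiers joining several genes (722) were kept.

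Genes and transcripts were tested with edgeR 4.0.16 in R 4.3.3 (quasi-likelihood, TMM, filter by group, Benjamini-Hochberg over all features, two-sided, calls at adjusted p under 0.05). Lines were compared in a fit over 10 libraries with 2 residual degrees of freedom, and instruments in the 4 IGROV-1 libraries. Alternatives were DESeq2 1.42.0, other scalings, no filter, a stricter transcript filter, PromethION libraries only, both IGROV-1 groups as reference, no joined identifiers, a replicate block, and each IGROV-1 library left out. Count tests were tested on simulated data. The IGROV-1 replicates differed by more than counting noise (chi-square per degree of freedom 4.36 on the PromethION and 6.73 on the MinION). Exons and transcript sequences come from GENCODE 29, promoters from RefSeq on GRCh38.p14. Likeness was ranked on log2(CPM + 1).

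The 9 genes and all gene lists were chosen with earlier results of these data known. All 9 were named, with genes of 3 fixed lists that reach 10 CPM in a line, the leading transcript of each gene and others with at least 20% of it (in libraries with at least 50 counts), and the 3 genes most like each member. Of these lists, 1 gene is counted in its list and not reported here by itself. Marker lists were read as levels; the CD68 identifier is joined with other genes and is not reported.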

Additional observations from a re-analysis of the deposited data

How the results depend on the processing

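The number of the 9 genes called against IGROV-1 stayed within 1.5 times its value under most alternatives. With DESeq2 it was 1 for OVTOKO in place of 4. Over the runs that left out an IGROV-1 library it ranged from 1 to 2 for OVMANA and from 1 to 2 for COV362, the added gene being PLAU. The cause of these changes was not tested. A run without a PromethION replicate takes its spread from the MinION pair alone, so calls gained in such runs are not read as differences. Leaving out an IGROV-1 library moved the PLAU difference between −0.32 and 1.45 for OVMANA, −0.84 and 0.93 for COV362, and −0.62 and 1.15 for COV504. Between instruments PLAU moved between −1.34 and 1.10 and its transcript ENST00000372764 between −1.36 and 1.10 (0.64 for both without MinION replicate 1), and with library totals only they were at 0.015 and 0.025, all without a call. In the order of levels, PLAU had 4 and 5 neighbouring pairs called without PromethION replicates 1 and 2 in place of 0. Over all values of single genes and pairs, 371 kept direction and call, 15 lost a call, 8 gained one, 9 changed sign and 10 counts of pairs moved, while 81 of the counts of genes called stayed and 4 moved.

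DESeq2 called 1464 genes in OVMANA, 2117 in OVKATE, 1329 in OVTOKO, 1691 in SK-OV-3, 1585 in COV362 and 1769 in COV504, where edgeR called 4613, 6405, 4443, 5446, 5544 and 5672. With library totals only, the median gene moved by 0.30 (log2) in OVKATE and 0.20 in SK-OV-3, and the share of calls that were higher went from 54.5% to 68.2% and from 52.7% to 64.5%. The called differences of PLAU, PLAUR, PLAT, SERPINE2 and the kallikreins kept their direction there. The replicate numbers are not said to pair the IGROV-1 libraries. Replicate 2 minus replicate 1 correlated between instruments with a Pearson r of 0.49 over 7894 genes, from 2 pairs. With the replicate block, 0 of the tested members were called between instruments, as without it (adjusted p = 0.89 for PLAU and 0.34 for PLAUR), while the genes called among all tested rose from 82 to 1979 (19.7%). Depth limits PLAT, PLAU in OVKATE, PLAUR in OVMANA, OVTOKO, COV362 and IGROV-1, SERPINE2 in IGROV-1 and OVKATE, and the kallikreins outside OVKATE. Each of these had 30 counts or fewer a library.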
